A study of Homo sapiens with 18 samples.

Results

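The change in transcripts after knockdown of RAD21 was compared between A549 and H358, 2 established human cell lines from lung adenocarcinomas. RAD21 is the kleisin of cohesin, the ring-shaped complex that holds sister chromatids together and extrudes chromatin loops that can bring enhancers and promoters into contact. Loss of cohesin is known to alter different genes in different cell types. A549 has lost KEAP1, the repressor of the oxidative stress factor NRF2, and H358 lacks p53. The comparison used 12 of the 18 libraries of the series, 3 in each of 4 groups: A549 and H358 cells given a lentiviral short hairpin RNA against RAD21 (shRAD21), and both lines given a control vector (shNC). All 12 carry the same batch label. The sources used here do not give the number of hairpins or the time from infection to harvest. They also do not say whether the 3 libraries of a group came from separate cultures. The p-values therefore cover only library-to-library spread, possibly technical.

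For each of 18939 genes tested of 58735 counted, the response in a line was the log2 fold change of shRAD21 against shNC. The difference between the lines was the H358 response minus the A549 response, so a negative difference means a gene was more raised, or less lowered, in A549. Calls were made at an adjusted p under 0.05 in edgeR's quasi-likelihood test. A gene is said to change in one line alone when it was called there, was not called in the other line, and its difference was called. Levels are given as CPM, counts scaled to library size, and where genes are sorted by level, as CPM per kilobase of exon.

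The 12 libraries held 15155077 to 19277568 counts. Within a group, the median absolute log2 difference between replicates was at most 0.146, except for A549 shRAD21 replicate 3, which lay 0.313 and 0.304 from the other 2. Summed leukocyte markers reached at most 5.18 CPM in any library. Summed endothelial markers were 0.427 to 1.07 CPM in A549 shNC and 0.489 to 0.545 CPM in A549 shRAD21, against 16.1 to 18.2 CPM in H358 shNC and 9.36 to 12.4 CPM in H358 shRAD21. Of the lung epithelial markers, NKX2-1, the lineage factor of the distal lung, averaged 121 CPM in H358 shNC and 0.064 CPM in A549 shNC.

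RAD21 itself was at 257, 253 and 255 CPM in A549 shNC and at 129, 132 and 101 CPM in A549 shRAD21. In H358 it was at 569, 589 and 603 CPM in shNC and at 379, 427 and 433 CPM in shRAD21. The groups did not overlap in either line, and the remaining level was 47.3% of control in A549 and 70.3% in H358. An exact two-sided permutation test gave p = 0.1 in each line, the smallest that 3 against 3 libraries allow. The knockdown was weaker in H358, with a difference of 0.57 ± 0.12 (SE, log2, adjusted p = 0.00228 by edgeR). What part the unequal knockdown has in the differences below cannot be told apart from the line.

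The response differed between the lines for 3325 genes, 17.6% of those tested. Of these, 1442 were more positive in H358 (7.61% of genes tested) and 1883 more negative (9.94%). With libraries scaled by their totals alone the split turned to 1967 positive and 1388 negative, with a median shift of 0.078 over all genes. Without A549 shRAD21 replicate 3 there were 3507 positive and 3841 negative differences. At least 2-fold differences numbered 457 positive and 552 negative. Knockdown was called for 4780 genes in A549 (25.2%) and for 1591 in H358 (8.4%). Over all tested genes the A549 and H358 responses had a Spearman rho of -0.00246, and 48.4% of genes had the same sign in both. These 2 responses share no library.

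**Figure D1:**
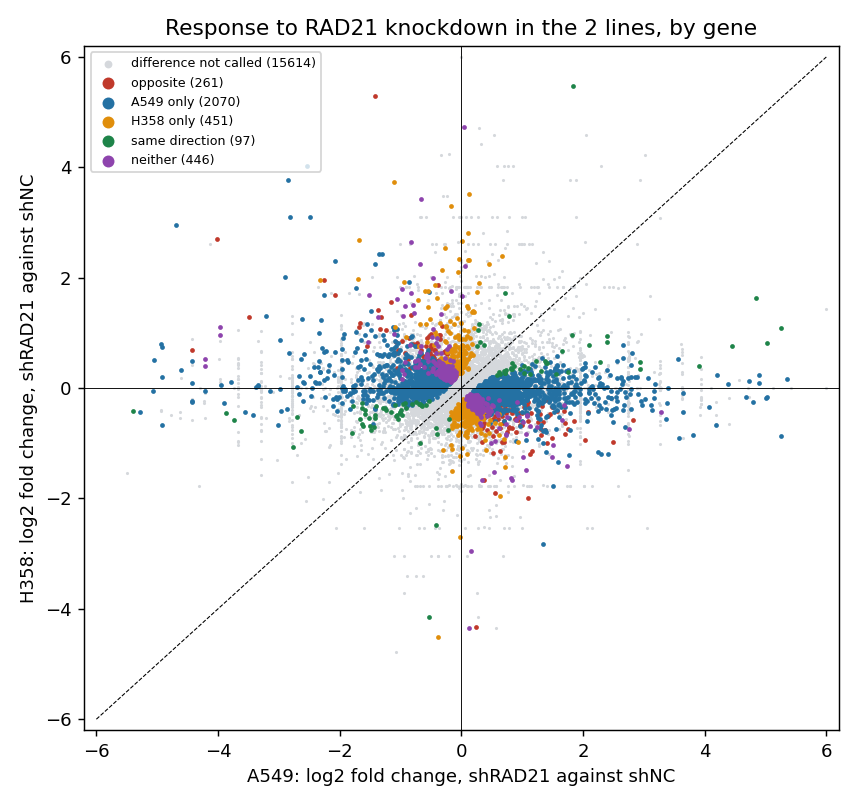
Response to RAD21 knockdown of each tested gene, with the log2 fold change in A549 on the x axis and in H358 on the y axis, coloured by how the lines differ; values beyond 6 are drawn at 6, and the dashed line marks equal responses. The 2070 genes called in A549 and not in H358 lie along the x axis, and the 261 opposite-direction genes fill the upper left and lower right. Fitted values of genes with no counts in a group depend on the prior count and are among the far points.

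By direction the 3325 genes fell into 5 classes. In 261 the knockdown was called in both lines with opposite signs, in 2070 it was called in A549 and not in H358, and in 451 in H358 and not in A549. Another 97 changed the same way in both lines by unequal amounts, 82 of them more in A549, and 446 were called in neither line although their difference was. Without A549 shRAD21 replicate 3 the A549-only class held 4011 genes, the H358-only class 909 and the same-direction class 402. Of 667 genes called in both lines, 406 had the same sign and 261 opposite signs.

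Opposite-direction genes came in unequal kinds: 169 rose in A549 and fell in H358, and 92 fell in A549 and rose in H358. In 231 of the 261 the shNC and shRAD21 libraries did not overlap in either line, and 55 changed by at least 1.5-fold in both. When each library was left out in turn, 85 stayed in the class in all 12 fits. Without A549 shRAD21 replicate 3 the class held 1620 genes, among them 258 of the 261, and 463 of the genes otherwise called in A549 alone joined it.

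SPP1, which encodes the secreted matrix protein osteopontin, had the highest control level in both lines of the 8 named genes that rose in A549 and fell in H358. Its level was 237, 229 and 226 CPM in A549 shNC and 528, 521 and 427 CPM in A549 shRAD21. In H358 it was 126, 108 and 109 CPM in shNC and 31.5, 26.3 and 28.5 CPM in shRAD21. The groups stood apart in both lines, and by edgeR SPP1 rose by 1.09 ± 0.09 (log2 ± SE) in A549 and fell by 1.99 ± 0.09 in H358, a difference of -3.09 ± 0.13 (adjusted p = 8.03e-11).

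DTX4, an E3 ubiquitin ligase of the Deltex family, started at like levels in the 2 lines. It was at 20.8, 18.6 and 17.6 CPM in A549 shNC against 40.3, 42.1 and 42.6 CPM in A549 shRAD21. In H358 it was at 15.4, 13.8 and 12.5 CPM in shNC against 6.09, 5.6 and 6.5 CPM in shRAD21. DTX4 rose in A549 and fell in H358 with no overlap between groups in either line, and the difference was -2.33 ± 0.15 (edgeR adjusted p = 2.04e-08).

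SYTL5, a synaptotagmin-like protein of vesicle traffic, stood far lower in A549 to begin with. Its level was 2.32, 3.28 and 2.41 CPM in A549 shNC and 18.2, 14.8 and 11.9 CPM in A549 shRAD21. H358 shNC was at 37.9, 31.1 and 34 CPM and H358 shRAD21 at 17.2, 18 and 17.4 CPM. The lines were more alike in the knockdown than in the controls, and the difference was -3.46 ± 0.22 (edgeR adjusted p = 1.34e-08). CALB2, the calcium-binding protein calretinin, followed the same course. It was at 1.46, 1.81 and 1.77 CPM in A549 shNC and at 6.18, 6.98 and 7.43 CPM in A549 shRAD21, against 9.21, 8.77 and 8.56 CPM in H358 shNC and 5.11, 4.62 and 4.15 CPM in H358 shRAD21. In the knockdown A549 stood above H358, the reverse of the controls. The other named genes of the kind were GUCY1B1, a subunit of soluble guanylate cyclase, GCOM1, SLC16A14 of the monocarboxylate transporter family, and SPRY3 of the Sprouty family, with differences from -2.40 to -1.70. SPRY3 stayed an opposite-direction gene in 5 of 12 leave-one-out fits. Exons of GCOM1 overlap another gene on the same strand over 29.68% of their length, so its reads cannot be assigned with certainty.

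In the reverse kind, SUSD2, a membrane protein with a sushi domain, had the highest control level in A549 of the 8 named genes. It was at 176, 171 and 177 CPM in A549 shNC and at 48.6, 54.6 and 63 CPM in A549 shRAD21. H358 held 3.61, 3.36 and 3.35 CPM in shNC and 8.9, 8.15 and 6.34 CPM in shRAD21. It fell by 1.66 ± 0.10 in A549 and rose by 1.18 ± 0.15 in H358, a difference of 2.84 ± 0.18 (edgeR adjusted p = 1.13e-08). FBXO2, the substrate-binding subunit of a ubiquitin ligase for glycoproteins, had an A549 control level of 12, 10.7 and 12.8 CPM and a knockdown level of 3.85, 4.19 and 5.66 CPM. Its H358 levels were 2.66, 3.02 and 3.41 CPM in shNC and 7.87, 8.49 and 7.96 CPM in shRAD21. The 2 lines exchanged places, with a difference of 2.79 ± 0.23 (edgeR adjusted p = 1.44e-07).

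TRAF1, an adaptor of tumour necrosis factor receptors, fell from 7.62, 8.9 and 7.3 CPM to 4.22, 3.87 and 4.02 CPM in A549. In H358 it rose from 4.44, 3.74 and 4.07 CPM to 6.03, 8.15 and 7.79 CPM. GFPT2, an enzyme of the hexosamine pathway, fell from 39.3, 40.1 and 40.3 CPM to 24.6, 21.8 and 20.7 CPM in A549, and rose from 5.11, 3.98 and 3.11 CPM to 9.36, 9.71 and 11.6 CPM in H358. All 12 leave-one-out fits kept both genes in the class. ANKRD1, a target of the Hippo pathway effector YAP, fell from 22.1, 18.9 and 19.3 CPM to 7.03, 7.05 and 8.59 CPM in A549. H358 shNC held no ANKRD1 count and H358 shRAD21 6, 5 and 4 counts. That is 5.29-fold more with the control group set to a floor of 3 counts. KCNH3, SLC22A31 and ANKRD33B completed the 8, with differences of 1.91 to 2.60. KCNH3 was near the floor in H358, at 0.56, 0.43 and 0.3 CPM in shNC and 1.26, 1.1 and 0.84 CPM in shRAD21. It stayed an opposite-direction gene in 8 of 12 leave-one-out fits.

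**Figure D2:**
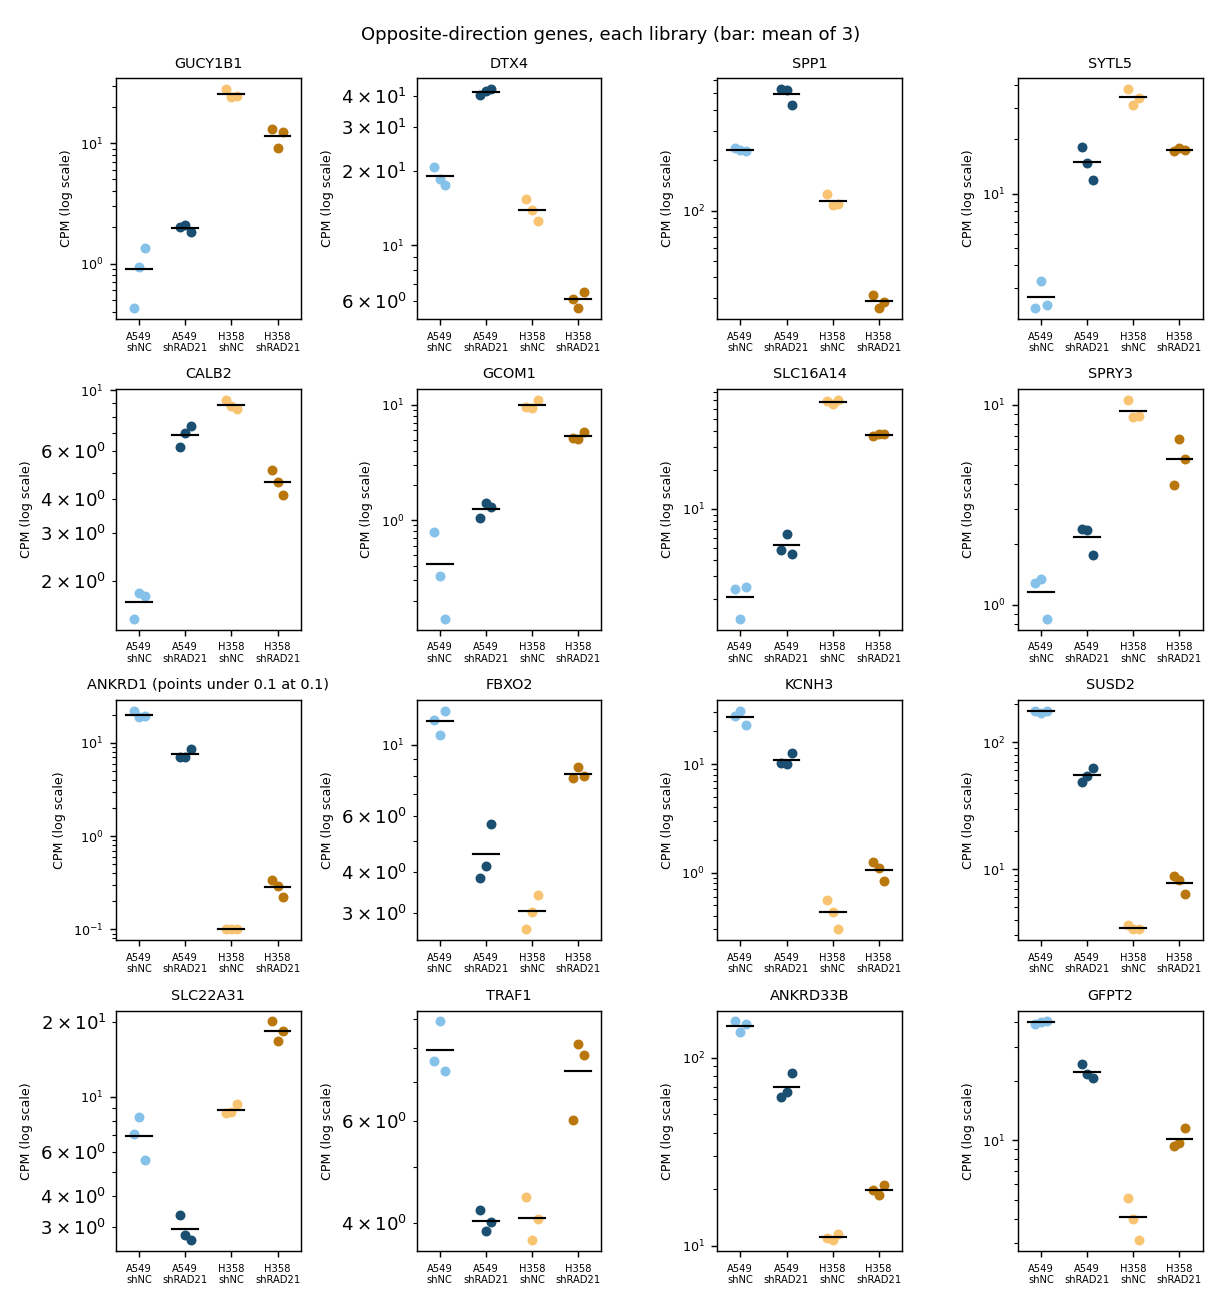
CPM on a log axis in each of the 12 libraries for the 16 named opposite-direction genes; points are libraries, bars are means of 3, and points under 0.1 CPM are drawn at 0.1. The first 8 genes rise in A549 and fall in H358, as SPP1 with 427 to 528 CPM in A549 shRAD21 and 26.3 to 31.5 CPM in H358 shRAD21, and the last 8 do the reverse.

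Genes called in A549 and not in H358 rose in 1203 cases and fell in 867. For 1622 of the 2070 the 95% interval of the H358 response lay within 1.5-fold of no change. H358 was silent, under 0.1 CPM per kilobase in both groups, for 49, and for 399 the H358 response was neither silent nor that closely bounded. The H358 estimate had the opposite sign for 1499 (72.4%), while over all tested genes 48.4% had the same sign in both lines. The class requires a called difference, which favours opposite signs, so nothing is read from this share. In the other direction, 208 genes rose and 243 fell in H358 alone, and for 378 of these 451 the A549 interval lay within 1.5-fold of no change.

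DNER, a ligand of Notch receptors, rose in A549 alone. It went from 1.34, 1.27 and 0.78 CPM to 11.1, 9.33 and 9.41 CPM, a change of 3.11 ± 0.19. H358 stood at 17.2, 19.2 and 16.9 CPM in shNC and at 13.7, 16.2 and 13.1 CPM in shRAD21. Each H358 knockdown library lay below the controls, but the response of -0.31 ± 0.12 missed its threshold (edgeR adjusted p = 0.135). After correction for GC content DNER counted as an opposite-direction gene. CFI, the complement factor I protease, went from 0.18, 0.27 and 0.07 CPM to 2.57, 2.41 and 1.84 CPM in A549, while H358 held 10.9, 10.8 and 12.5 CPM and then 9.65, 12.2 and 10.1 CPM. Its H358 libraries overlapped, and the difference was -3.74 ± 0.40 (edgeR adjusted p = 3.95e-06). MCTP2, a calcium-binding membrane protein, JPH1, which joins the plasma membrane to the endoplasmic reticulum, and HSH2D rose from near 0 in A549. JPH1 held no count in A549 shNC and 1, 5 and 4 counts in A549 shRAD21, 3.24-fold more against a floor of 3 counts. Its level in H358 was 23.7 to 27.6 CPM throughout.

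Among the genes that fell in A549 alone, FAM133A went from 4.15, 2.61 and 2.62 CPM to 0.49, 0.89 and 0.27 CPM. H358 held 9.73 to 14.6 CPM across both groups. LY6K, a surface protein of the Ly6 family, went from 1.28, 1.07 and 1.49 CPM to 0.18, 0 and 0.07 CPM in A549 and stood at 32.1 to 39.3 CPM in H358, and 71.03% of its exon length overlaps a gene on the other strand. LY6D of the same family held 4, 2 and 4 counts in A549 shNC and none in A549 shRAD21, 3.43-fold fewer against a floor of 3 counts. GRHL2, a transcription factor that maintains epithelial junctions, held 1, 1 and 4 counts and then none in A549, 2.06-fold fewer against that floor. GRHL2 stood at 132 to 142 CPM in H358. Its difference kept its call in 9 of 12 leave-one-out fits, as did that of PCDH18, and those of ZNF649 and HSH2D in 8 and 7. The rule for naming thus reached genes near the floor in A549 that H358 expressed well.

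In H358 alone, IGFBP3, a carrier of insulin-like growth factors, was the most abundant named gene. It was at 161, 173 and 168 CPM in H358 shNC and at 93.9, 88.8 and 89.8 CPM in H358 shRAD21. A549 held 911, 908 and 888 CPM in shNC against 1020, 996 and 887 CPM in shRAD21. The A549 groups overlapped and the H358 groups did not, with a difference of -0.98 ± 0.09 (edgeR adjusted p = 4.35e-07). SLCO4A1, an organic anion transporter, fell from 84.7, 76.9 and 65.2 CPM to 44.6, 47.6 and 46.3 CPM in H358, and stood at 7.99 to 11.9 CPM in A549. ADAM12, a metalloprotease, rose from 0.22, 0.34 and 0.54 CPM to 2.24, 1.1 and 2.19 CPM in H358 and overlapped between the groups in A549, at 6.47 to 8.72 CPM. The other named genes that rose in H358 alone (RBPMS2, LONRF2, TUBB4A, PDZD4 and SYDE1) were all at most 0.42 CPM in each H358 shNC library. RHOU, which fell, was at 0.54 to 1.22 CPM there, and its difference kept its call in 8 of 12 leave-one-out fits.

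A second kind of one-line gene was silent in the other line. GDA, a guanine deaminase, rose from 1.83, 2.68 and 1.77 CPM to 19.9, 19.9 and 17.2 CPM in A549, while no H358 library exceeded 0.48 CPM. UNC13A, which primes synaptic vesicles, fell from 19.5, 21.6 and 22.8 CPM to 1.96, 1.52 and 1.91 CPM in A549 with at most 0.38 CPM in H358. For such genes the H358 response is poorly measured. With no count at all the difference cannot be called: 263 tested genes had no count in the 6 H358 libraries, 95 of them called in A549, and 531 had none in the 6 A549 libraries, 27 of them called in H358. No gene of either set received a call for the difference.

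Of the genes that rose in both lines by unequal amounts, CEACAM6, an adhesion molecule of epithelial cells, had the largest difference among those named. In A549 it rose from 9.94, 10.6 and 11.2 CPM to 260, 250 and 187 CPM. In H358 it went from 2.44, 2.01 and 1.68 CPM to 3.45, 3.64 and 3.36 CPM. Both lines rose, by 4.46 ± 0.12 and 0.76 ± 0.20, and the difference was -3.69 ± 0.25 (edgeR adjusted p = 2.59e-08). EFEMP1, an extracellular matrix protein, fell in both, from 18.7, 15 and 19.8 CPM to 1.96, 1.08 and 0.55 CPM in A549 and from 156, 149 and 157 CPM to 115, 116 and 106 CPM in H358. AXL, a receptor tyrosine kinase, was one of the 15 that changed more in H358, from 5, 6.57 and 5.86 CPM to 11.6, 13.9 and 13.8 CPM, against 248, 238 and 232 CPM and then 273, 265 and 335 CPM in A549. In the leave-one-out fits CEACAM6 and EFEMP1 stayed in the class in 7 of 12 and AXL in 5, though all 3 differences were called in every one.

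The level of a gene in the control cells went with how often and which way the responses differed. Genes were sorted by their mean in each shNC group into silent (under 0.1 CPM per kilobase), low (0.1 to under 5) and high (5 or more). Of 1178 genes low in A549 and high in H358, 410 (34.8%) had a called difference, and 335 of these were negative. Of 1288 genes high in A549 and low in H358, 351 (27.3%) were called, and 239 of these were positive. Where both lines were high 1383 of 5968 (23.2%) were called, 651 positive and 732 negative, and where both were low 931 of 7253 (12.8%). The order of these shares rested on A549 shRAD21 replicate 3. Without it the share was 62.5% where both lines were high (3733 genes), 53.5% for low in A549 and high in H358 (631), 51% for the reverse (658) and 25.7% where both were low (1935). Of those called then, 463 of 631 were negative and 418 of 658 positive.

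Differences of silent genes were measured with more error. In the 5 classes with a silent line between 4.86% and 13.3% were called, with a median SE of the difference of 1.06 to 1.39, against 0.33 where both lines were low and 0.12 where both were high. How far the calls follow the precision of the counts was not tested. Of 203 genes silent in A549 and high in H358, 27 were called, 25 of them negative, and ESRP1, an epithelial splicing factor, was among them with 0.093 CPM in A549 shNC, 0.389 CPM in A549 shRAD21 and 291 CPM in H358 shNC. Of 965 genes low in A549 and silent in H358, 90 were called, 72 of them positive. A gene at the floor can hardly be lower, and these genes passed the count filter through another group, so nothing is read from the direction of their calls.

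**Figure D3:**
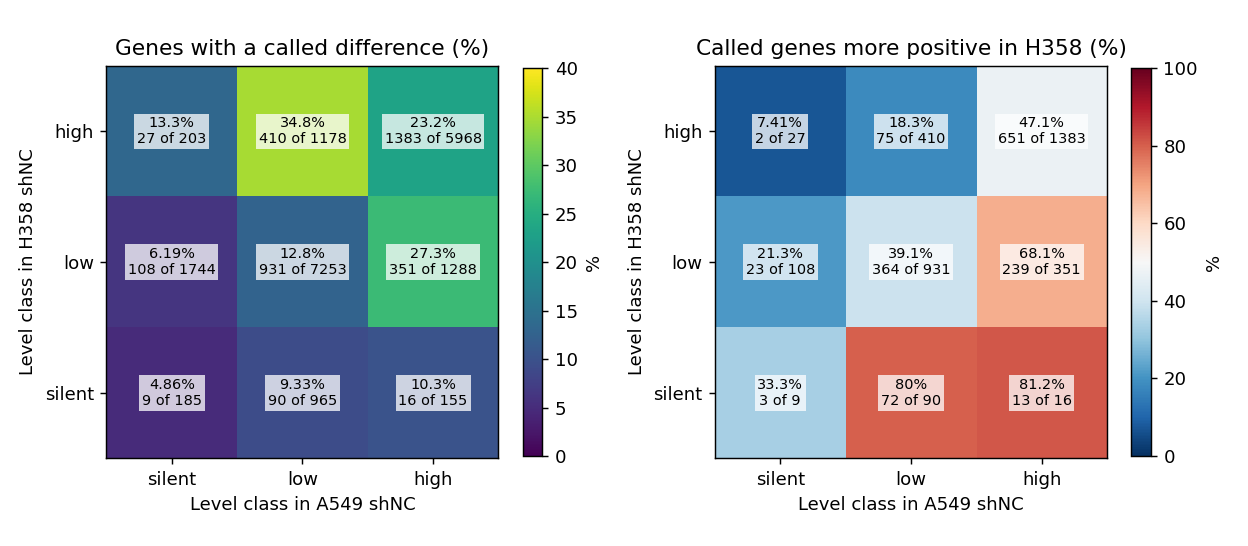
Share of genes with a called difference (left) and share of those called that were more positive in H358 (right), in percent, by the level class of the gene in A549 shNC (x axis) and H358 shNC (y axis). The called share is 34.8% for genes low in A549 and high in H358, above the 23.2% of genes high in both, an order that turns without A549 shRAD21 replicate 3; 18.3% of the low-high calls are positive, against 68.1% for genes high in A549 and low in H358.

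The shNC libraries enter both the level class and the difference, so a chance high control library would move both. With classes taken from shNC replicate 1 alone and the difference from the other libraries, 253 of 1176 genes low in A549 and high in H358 were called, 201 of them negative, and 206 of 1329 in the reverse class, 150 of them positive. With the A549 class taken from the empty-vector libraries of the separate overexpression batch, 427 of 1373 low-high genes were called, 335 of them negative.

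The gap between the lines was followed for the same genes. Among the 1609 called genes whose shNC levels differed by at least 2-fold, the gap was narrower in the knockdown for 71.2%, wider for 22.9% and of reversed sign for 5.97%. The median gap was 2.06 in shNC and 1.60 in shRAD21 (log2). Among the 6753 genes as far apart whose difference was not called, it was narrower for 57% and wider for 42.4%. Over all 3325 called genes the gap narrowed for 46.2%, reversed sign for 22.8% and widened for 31%. Among the 3075 called genes silent in neither line the shares were 44.4%, 23.7% and 31.9%. Over all 18939 tested genes the shares were 45.6%, 12.2% and 42.2%. The response difference pointed toward the other line for 77.1% of the 1609 genes. With the gap taken from shNC replicate 1 and the difference from the remaining libraries it did so for 739 of 977 (75.6%). The sets at least 2-fold apart include genes silent in a line, which can hardly fall there. How far the narrowing follows from that floor was not tested.

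**Figure D4:**
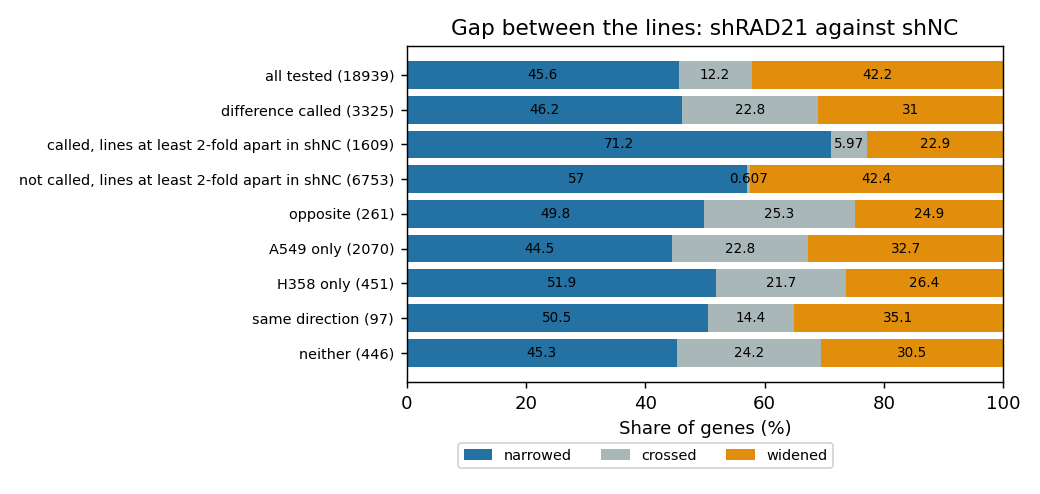
Share of genes, in percent, whose gap between A549 and H358 was narrower, of reversed sign (crossed) or wider in shRAD21 than in shNC, for sets of genes with their number in brackets. The gap narrowed for 71.2% of called genes that differed at least 2-fold between the control lines, for 57% of genes as far apart without a called difference, and for 46.2% of all called genes. The sets include genes silent in a line, which can hardly fall there.

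Base composition went with the direction of the response. The GC content of a gene's longest transcript had a Spearman rho of -0.326 with the A549 response, 0.183 with the H358 response and 0.354 with the difference. The A549 libraries did not share the trend: against the mean of A549 shNC, rho was -0.433 and -0.417 in shRAD21 replicates 1 and 2 and 0.0997 in replicate 3. In the 3 H358 shRAD21 libraries it was 0.117 to 0.242. Opposite-direction genes that rose in A549 had a median GC of 45% and those that fell in A549 57%, against 48.4% over all tested genes. After each library's trend on GC content and exon length was removed, the rho with the difference was -0.0261 and 3968 genes were called, 2505 of the 3325 among them. The opposite-direction class then held 520 genes, 205 of the 261 among them. Whether the trend arose in the cells or in library preparation was not tested.

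Epithelial genes were called mostly in A549 alone. Of 34 tested genes of epithelial junctions and keratins, 21 had a called difference (61.8%, against 17.6% of all genes), 17 negative and 4 positive, and 18 were called in A549 alone, with a median difference of -0.57 against -0.02 over all genes. LSR, a protein of tricellular junctions, rose from 8.97, 10.9 and 10.1 CPM to 53.6, 54.5 and 77.7 CPM in A549, with 189, 182 and 169 CPM and then 212, 202 and 202 CPM in H358. EPCAM, an epithelial adhesion molecule, rose from 3.48, 4.28 and 3.19 CPM to 12.2, 10.9 and 8.93 CPM in A549, with 559, 525 and 534 CPM and then 470 to 484 CPM in H358. Both genes rose in A549 toward, but not to, the level of H358. The 4 positive members included CLDN1 and JUP, which fell in A549, CLDN1 from 189, 168 and 180 CPM to 57.4, 54.6 and 44.2 CPM. Summed lung epithelial markers share genes with the list, KRT8 and KRT18 among them, and are not separate evidence. They went from 9570 to 10100 CPM up to 12600 to 15800 CPM in A549 and were 5620 to 6020 CPM in all H358 libraries.

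Of 31 mesenchymal genes 48.4% had a called difference, 13 positive and 2 negative, with a median of 0.61, and of 0.38 after the GC and length correction. COL5A2, a fibrillar collagen chain, fell from 494, 509 and 545 CPM to 217, 207 and 214 CPM in A549, with 1.91 to 4.32 CPM in H358. THBS1, the matrix protein thrombospondin, fell from 134, 112 and 123 CPM to 61.8, 55.6 and 66.9 CPM in A549 and was 248 to 309 CPM in H358. The 2 negative members were CDH2, N-cadherin, which rose in A549, and VIM, vimentin, which rose by 0.20 ± 0.07 in A549 and fell by 0.55 ± 0.07 in H358. VIM stayed an opposite-direction gene in 1 of 12 leave-one-out fits, and 24.43% of its exon length overlaps a gene on the other strand. Summed fibroblast markers, which include collagens, were 25.7 to 48.1 CPM in all 12 libraries. Among YAP targets 10 of 24 were positive and 2 negative (50% called), and TGFB2, a growth factor of that list, fell in A549 alone by 0.88 ± 0.10.

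**Figure D5:**
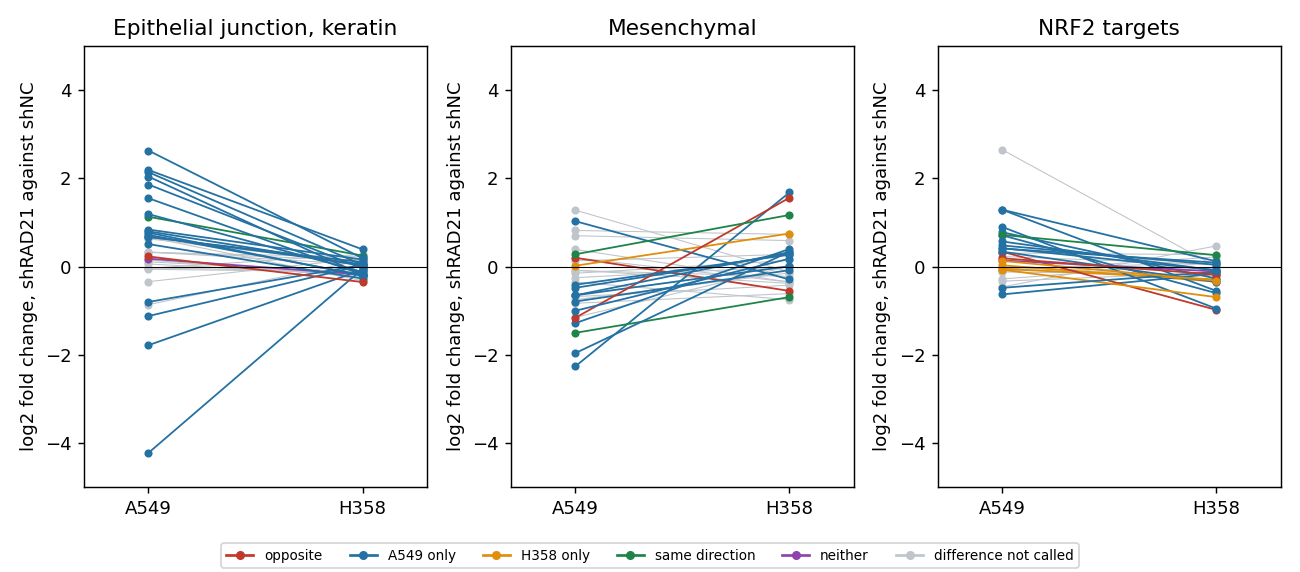
Log2 fold change of shRAD21 against shNC in A549 and H358 for each tested member of 3 gene lists, 1 line per gene, coloured by how the lines differ. Most called epithelial genes lie above 0 in A549 and near 0 in H358 (17 of 21 differences negative), most called mesenchymal genes lie below 0 in A549 (13 of 15 positive), and 18 of 20 called NRF2 targets differ negatively; the epithelial point near -4 is GRHL2, a fitted value from 6 counts against none.

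Most genes of a transcript score of ERK activity fell more in A549. Of the 10 genes of the MAPK activity score, 8 had a called difference (80%, against 17.6% of all genes), 7 positive and 1 negative. The median response was -0.87 in A549 and -0.24 in H358. ETV4, a transcription factor induced by ERK, fell from 77.5, 85.4 and 78.5 CPM to 17.4, 21.1 and 23.5 CPM in A549. H358 went from 53.9, 51.7 and 47.8 CPM to 40.9, 42.9 and 43.2 CPM, a response of -0.27 ± 0.09 that missed its threshold (edgeR adjusted p = 0.0765), and the difference was 1.69 ± 0.13 (adjusted p = 1.05e-07). PHLDA1, DUSP4, DUSP6 and ETV5 fell in both lines and more in A549, and SPRY2 and SPRY4, inhibitors of receptor signalling, fell in A549 alone. EPHA4 rose in A549, and the differences of CCND1 and EPHA2 were not called. Among 18 growth factor ligands 8 differences were called (44.4%), 4 of each sign, and 5 positive and 7 negative without A549 shRAD21 replicate 3. Only TGFA was called in opposite directions, and 3 changed the same way in both lines. TGFA, a ligand of the EGF receptor, rose from 9.7, 8.3 and 7.09 CPM to 24, 20.6 and 23.2 CPM in A549 and fell from 130, 118 and 128 CPM to 91.2, 84.3 and 88.7 CPM in H358. EREG, another ligand of that family, fell in H358 alone by 0.69 ± 0.07. ITGB6, the integrin subunit that activates transforming growth factor beta, rose by 1.75 ± 0.14 in A549 and fell by 0.75 ± 0.10 in H358.

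Interferon-stimulated genes differed in both directions, with 7 of 43 differences positive and 10 negative, 11 called in A549 alone and 5 in H358 alone (39.5% called). IFIH1, a sensor of double-stranded RNA, rose from 1.65, 1.87 and 1.42 CPM to 6.12, 6.54 and 4.09 CPM in A549, with 33.9 to 41.3 CPM in H358. OAS3, which makes the activator of RNase L, rose from 99.9, 102 and 98.7 CPM to 171, 160 and 177 CPM in H358 and stood at 148 to 190 CPM in A549. Among antigen presentation genes of class I, 4 of 15 differences were negative and 1 positive (33.3% called). Without A549 shRAD21 replicate 3, 4 were negative and 6 positive. Genes under NF-kB gave 7 positive and 4 negative of 23 (47.8% called, against 17.6% of all genes). Their median difference was 0.32, and 0.1 after the GC and length correction. NFKBIA, the inhibitor that NF-kB induces, fell in A549 by 0.73 ± 0.08 and rose in H358 by 0.34 ± 0.08, and LCN2, an iron-binding defence protein, rose in A549 alone by 4.68 ± 0.27.

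Of the NRF2 targets 18 of 31 differences were negative and 2 positive (64.5% called). AKR1C1, an aldo-keto reductase, rose from 322, 328 and 332 CPM to 911, 870 and 625 CPM in A549 and was 2.52 to 4.79 CPM in H358. SLC7A11, the cystine transporter, was at 534, 514 and 561 CPM and then 748, 759 and 536 CPM in A549, where the groups overlapped, and fell from 126, 113 and 131 CPM to 66, 60.5 and 61.3 CPM in H358. Targets of ATF4, the amino acid stress factor, gave 12 negative and 1 positive of 37 (35.1% called), with 9 called in H358 alone, and 20 negative after correction for GC content. VLDLR, a lipoprotein receptor of that list, rose in A549 by 0.79 ± 0.09 and fell in H358 by 0.73 ± 0.09. Of 31 genes of sterol and fatty acid synthesis 10 were negative and none positive, at an adjusted p under 0.05 (32.3% called, against 17.6% of all genes). Their median difference was -0.13, and -0.07 without A549 shRAD21 replicate 3, against -0.02 over all genes in both fits. FADS1, a fatty acid desaturase, rose in A549 alone by 0.73 ± 0.06. With the correction for GC content that list gave 15 negative and 1 positive. Without A549 shRAD21 replicate 3 it gave 12 negative and 4 positive, NRF2 targets 18 and 5, and ATF4 targets 14 and 5.

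Targets of p53 gave 10 positive and 2 negative of 25 (48% called), and 14 and 4 without A549 shRAD21 replicate 3. CDKN1A, the cell cycle inhibitor p21, fell from 258, 254 and 242 CPM to 154, 152 and 202 CPM in A549. In H358 it rose from 58.1, 55.4 and 50.2 CPM to 74.5, 68.4 and 70.2 CPM. Genes of S phase gave 11 positive and 0 negative of 42, and CCNE1, cyclin E1, fell in A549 by 0.61 ± 0.09 and rose in H358 by 0.47 ± 0.10. The S phase list had 26.2% called, and without that library gave 22 positive and 5 negative. Genes of G2 and M phase gave 6 negative and 0 positive of 46 (13%, below the 17.6% of all genes), but 27 negative and 6 positive without that library, and 2 negative and 1 positive with scaling by library totals.

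Of 21 cohesin genes and regulators 3 differences were positive and 2 negative, 23.8% in all and near the 17.6% of all genes, and 5 and 9 without A549 shRAD21 replicate 3. REC8, the meiotic kleisin, was at 7.5, 8.7 and 7.65 CPM and then 5.57, 5.4 and 5.66 CPM in A549, and at 10.9, 9.11 and 10.2 CPM and then 18, 15.4 and 15.8 CPM in H358. After correction for GC content REC8 counted as changed in H358 alone. Without that correction the kleisin paralogue fell in one line and rose in the other, with a difference of 1.22 ± 0.18 (edgeR adjusted p = 0.000113). CDCA5, sororin, which protects cohesin in G2, moved the same way, by -0.31 ± 0.08 and 0.32 ± 0.08, and stayed an opposite-direction gene in 4 of 12 leave-one-out fits. Of 21 genes of H3K4 methyltransferase complexes 2 were positive and 2 negative (19%, also near it), and 8 and 7 without that library. KMT2C, a catalytic subunit, rose in A549 alone by 0.55 ± 0.08. Clustered protocadherins, whose promoter choice depends on cohesin and CTCF, gave 12 negative and 1 positive of 53, all 13 called in A549 and not in H358 (24.5% called), and 14 and 2 without that library. PCDHA4 rose from 3.78, 3.14 and 4.46 CPM to 8.01, 7.62 and 8.11 CPM in A549, with 13.4 to 15.3 CPM in H358, and PCDHAC1 fell in A549 by 1.28 ± 0.19.

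Other lists were divided. Immediate early genes of ERK gave 6 positive and 2 negative of 22, and 11 and 2 without A549 shRAD21 replicate 3. Genes of glycolysis and hypoxia gave 4 of each sign of 28, integrin subunits 3 of each of 19, and the unfolded protein response 3 positive and 2 negative of 20. Without that library the glycolysis list gave 12 positive and 6 negative, the unfolded protein response 5 and 9, and integrin subunits 5 and 5. Identity genes of lung and gut endoderm gave 6 negative and 2 positive of 27, and 7 and 4 without it. Called shares of these lists were 25% to 36.4%. Scaling by DESeq2 size factors left the positive and negative counts of every list named here as they were.

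The class of several genes named above turned with the correction for GC content. EPCAM, CDH2, THBS1, IGFBP3 and SLCO4A1 then counted as opposite-direction genes, SLC7A11, REC8 and SPRY3 as changed in H358 alone, and ETV4, SPRY2, OAS3, PDZD4 and SYDE1 as changed the same way in both lines. The differences of these genes kept their sign. Exons that overlap another gene covered 40.48% of DUSP6 on the other strand, and on the same strand 32.04% of CFI, 26.62% of TGFB2, 20.61% of ITGB6, 41.28% of PCDHAC1, 21.32% of PCDHA4 and 40.29% to 56.62% of PCDHA2, PCDHA3 and PCDHA5, so that their reads cannot be assigned with certainty.

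Some called genes were neighbours on a chromosome. In 31 places at least 4 consecutive tested protein-coding genes had called differences of the same sign, 12 positive and 19 negative, with 140 genes in all. These were picked after their values were seen, and whether called genes lie together more often than other genes was not tested. One run lay on chromosome 1 between 88935773 and 89150456 (hg38) and held the guanylate-binding proteins GBP3, GBP1 and GBP2, interferon-induced GTPases, beside KYAT3 and RBMXL1. GBP3 rose from 0.98, 1.2 and 1.13 CPM to 10.52, 8.89 and 6.61 CPM in A549, with 20.11 to 31.47 CPM in H358. GBP1 rose from 0.3, 0.07 and 0.35 CPM to 2.94, 2.73 and 2.11 CPM in A549, with 12.75 to 19.13 CPM in H358. GBP2 rose in A549 by 1.71 ± 0.21 and fell in H358 by 0.63 ± 0.13. Exons of KYAT3, RBMXL1 and GBP2 overlap another gene on the same strand over 20.34%, 9.22% and 9.89% of their length. On chromosome 3, PARP9 and DTX3L, which are divergently transcribed and act together, and PARP14 beside them rose in A549 alone by 1.09 ± 0.11, 0.89 ± 0.08 and 0.69 ± 0.09. Genes in positive runs had a median GC of 61.8% and those in negative runs 42.4%.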

How the data were processed

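Whole-transcriptome libraries of A549 and H358 were used as raw counts per gene, which the authors deposited in 2 tables. The build hg38 and the tools featureCounts 1.5.0-p3, HISAT2 2.0.5 and fastp are listed in the submitters' processing notes, without role or order. The sources used here do not give whether counting used strand. Gene coordinates equal GENCODE 29. The 12 knockdown libraries were fitted together in edgeR 4.0.16 (R 4.3.3) with 1 mean per group, filterByExpr, TMM scaling and two-sided quasi-likelihood F-tests of each line's response and of their difference, with Benjamini-Hochberg adjustment over 18939 genes. The fit was tested on simulated counts. The 6 overexpression libraries served only for the A549 level class from empty-vector cells. CPM are TMM-scaled counts. Folds against a group without counts use a floor of 3 counts over the group, which allows for counting error in that group only. Counts of the other group are taken as exact, so these folds are not lower limits.

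Named genes are protein-coding, with a called difference, a mean of at least 4 CPM over the 12 libraries and ranges apart where the knockdown was called. These are the 8 opposite-direction genes of each kind with the largest smaller change, the 6 or 4 one-line genes and 3 same-direction genes of each kind with the largest difference, up to 2 members per direction of each list described, RAD21 and the MAPK score. List members were taken by adjusted p without the level and range conditions, which LCN2 and PCDHAC1 (level) and SLC7A11 (range) miss. ESRP1 and the genes of neighbouring runs were named after their values were seen. The members and lists were chosen with earlier results of these data known. Alternatives were DESeq2 1.42.0 size factors and its Wald test, limma-voom (limma 3.58.1), 2 other filters, replicate blocks, a GC and length correction, other level classes, and each library left out in turn. Scaling by library totals and the level classes under the other fits were chosen after seeing the data. Figures used matplotlib 3.10.9.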

Additional observations from a re-analysis of the deposited data

Results flagged for a closer look

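For the 16 named genes with opposite responses, the H358 response minus the A549 response was itself past the threshold in edgeR's test of the difference. The differences (log2) were -2.31 for GUCY1B1, -2.33 for DTX4, -3.09 for SPP1, -3.46 for SYTL5, -2.96 for CALB2, -2.40 for GCOM1, -2.17 for SLC16A14 and -1.70 for SPRY3. In the reverse kind they were 2.79 for FBXO2, 2.60 for KCNH3, 2.84 for SUSD2, 2.30 for SLC22A31, 1.82 for TRAF1, 1.91 for ANKRD33B and 2.16 for GFPT2. The value of 6.71 for ANKRD1 is a fitted one that depends on the prior count, since H358 shNC held no count.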

How the results depend on the processing

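Of the gene-level results under the alternatives, 2937 kept direction and side of the threshold, 195 lost the call, 8 gained one and none reversed. Each such result is 1 gene under 1 setting, for a selected set of genes and not all those tested. They follow the call of the difference and not the class of the gene. With each library left out in turn, positive differences ranged from 932 to 3507, negative ones from 1246 to 3841, opposite-direction genes from 128 to 1620, A549-only genes from 1384 to 4011, H358-only genes from 210 to 909 and same-direction genes from 35 to 402. All the highest values came without A549 shRAD21 replicate 3. The called share ranged from 8.62% to 25.7% where both lines were low, 26.3% to 53.5% for low in A549 and high in H358, 19.6% to 51% for the reverse and 13.9% to 62.5% where both were high. Correction for GC content and length gave 520 opposite-direction, 780 H358-only and 256 same-direction genes; the cause was not tested. Deviations of same-numbered libraries had correlations of -0.0369 to 0.052, and those of differently numbered libraries -0.0364 to 0.0338. With 3 libraries per group, such values cannot settle whether the numbers pair the libraries. A replicate block shared by both lines gave 62 same-direction genes, and a replicate block within each line gave 58, with 284 H358-only genes. The called shares, in the order low and low, low and high, high and low, high and high (A549 first), were 10.5%, 30.4%, 22.9% and 17.8% with the shared replicate block, and 10.3%, 30.1%, 22.7% and 17.6% with the block within lines. Classes from shNC replicate 1 gave 6.77%, 21.5%, 15.5% and 9.82%, with fewer libraries in the test. The filter of 10 CPM gave 24.1%, 40%, 31.7% and 26.5%, and left no gene silent in both lines. Class limits of 0.3 and 3 gave 11.1%, 30% and 23.8% for the first 3. The GC and length correction gave 38%, 32.6% and 31.1% for the last 3. DESeq2's Wald test gave 13.7%, 37.7% and, where both were high, 27%. Both low and both high gave 9.56% and 26.9% without a filter. Both low gave 9.47% by CPM without length, low and high 31.1% with empty-vector classes, and both high 25.2% by limma-voom. Where a line held no count the fit could not estimate its response, and no such gene had a called difference.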
